A study of Mus musculus with 9 samples.

Results

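Primary cilium genes were followed in mesenchyme of the small intestine, the tissue beneath the epithelium that gives rise to connective tissue and smooth muscle, after exposure to hedgehog ligands. The members were 43 genes of intraflagellar transport, the BBSome, the transition zone and ciliary hedgehog trafficking. A member was measured where the platform annotation gave a probe set its symbol and no other, which held for 40 genes with 71 probe sets among 18193 genes measured. Arl6, Rpgrip1l and Arl13b had no such probe set and were not analysed here. Mesenchyme of C57Bl/6J embryos at E18.5 was freed of epithelium and kept in culture for 48 h, then given 1 of 3 agents for 24 h: Vehicle, Shh (Sonic hedgehog) or Ihh (Indian hedgehog). Each group had 3 Affymetrix arrays. Every array read a random pool of wells, 3 pools from the 6 wells of a treatment, and p-values therefore measured the spread between pools of wells. All groups were of the same strain, age and culture, and the agent was the only difference that the labels gave. The sources used here give neither the dose of the ligands nor the composition of Vehicle.

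The primary cilium is a single, non-motile projection of the cell surface, built on a centriole and closed off at its base by the transition zone. Protein complexes are carried along it by intraflagellar transport (IFT). IFT-B trains run to the tip with a kinesin motor, and IFT-A trains return with a dynein motor, while the BBSome carries membrane proteins out of the cilium. Vertebrate hedgehog signalling runs through this organelle. The receptor Ptch1 leaves the cilium when it binds ligand, Smo enters, and the Gli transcription factors are processed there. In the gut the epithelium secretes the ligands and the mesenchyme, which bears primary cilia, receives them.

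The ligands acted on these cultures, as shown by Ptch1, the receptor whose own transcription the pathway drives. Ptch1 was at 9.25, 9.11 and 9.06 log2 on the Vehicle arrays, 10.41, 10.88 and 10.35 with Shh, and 10.57, 10.49 and 10.98 with Ihh. All 6 treated arrays lay above all 3 Vehicle arrays, by 1.48 ± 0.14 log2 (SE, limma adjusted p = 0.000622) for both ligands together. In the same samples the cilium genes stayed close to their Vehicle levels. The 40 measured members differed from Vehicle by -0.27 to 0.27 log2, and limma called 0 of them at an adjusted p under 0.05, where it called 1.51% of all genes.

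Cell type markers were read on the same arrays. The 10 markers of gut mesenchyme lay above the array medians (5.87 to 5.92 log2) on all arrays, and 12 of 13 markers of motile cilia, which are found on multiciliated cells, lay below them on all arrays. Limma called 0 of the mesenchyme markers for both ligands, with differences of -0.57 to 0.22 log2. At an unadjusted p under 0.05, 1 was higher and 3 were lower, against 13.7% of all genes. The 10 markers of macrophages and other leukocytes were also all above the medians. Their list mean lay 0.31 to 0.41 log2 below the Vehicle mean on the treated arrays. For both ligands limma called 1 of them risen and 4 fallen, where it called 1.51% of all genes. The mean of the 10 epithelial markers ranged from -0.93 to 1.05 log2 around the Vehicle mean, with treated and Vehicle arrays overlapping. The mean of the 10 endothelial markers was -0.41 to 0.00 log2 on the treated arrays and -0.14 to 0.07 with Vehicle. For both ligands 0 were called and 6 were lower at an unadjusted p under 0.05, against 13.7% of all genes. With Shh alone limma called 1 of them lower than with Vehicle, at an adjusted p of 0.0464. Of 8 enteric neuron and glia markers 0 were called for both ligands, with 1 higher and 4 lower unadjusted. The part of these markers in the results below was not tested. The 3' minus 5' difference of the Gapdh control probe sets, which reflects RNA integrity, ranged from -0.08 to 0.03 log2 for Vehicle, -0.18 to -0.15 with Shh and -0.19 to -0.04 with Ihh. In these bulk samples fewer cells of a type and less RNA per cell cannot be told apart.

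Promoters of cilium genes often carry a site for RFX factors, transcription factors that drive ciliary genes across animals. The window from 250 bases before to 50 bases after each gene's start was read for the half-site GTTGCC on both strands (RefSeq, GRCm38.p6). Of the 43 members 38 had an entry, and 16 of them (42.1%) held the half-site, against 14.1% of all 27025 genes with an entry and 14.7% of the genes named on the array. A paired form, GTTGCC followed after any 2 bases by GGNAAC, which overlaps the half-site and was added after the half-site was read, stood in 3 of 38 members (7.89%) and in 0.355% of all genes. These shares were not matched for base composition. The following stretches are shown because the half-site is a feature of the members that their selection did not use. Capitals mark the paired form in the first 3 and the half-site, on either strand, in the others, and each stretch is written 5' to 3' on the strand of its gene.
Bbs7 (chr3:36613489-36613518, minus strand): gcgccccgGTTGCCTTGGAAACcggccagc
Mks1 (chr11:87853183-87853212, plus strand): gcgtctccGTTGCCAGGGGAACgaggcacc
Ahi1 (chr10:20952560-20952589, plus strand): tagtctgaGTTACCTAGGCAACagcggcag
Kif3a (chr11:53567259-53567288, plus strand): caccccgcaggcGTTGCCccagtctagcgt
Ift27 (chr15:78174073-78174102, minus strand): gggttgatgatgGTTGCCaggagcctgttt
Kif17 (chr4:138262166-138262195, plus strand): gacgtcacggagGTTGCCcagcaacggcga
Ift140 (chr17:25015965-25015994, plus strand): gcgtgttgtgacGGCAACctcgcgcccttg

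The 15 measured members with the half-site had a median difference of 0.04 log2 for both ligands, from -0.27 to 0.15. For the 20 measured members whose promoter lacked it the median was 0.03, from -0.19 to 0.27, so both sets centred close to 0. None of the 6 RFX genes was called by limma in any comparison with Vehicle. Rfx1 alone had an unadjusted p under 0.05 for both ligands, at -0.18 log2 (adjusted p = 0.212). With Shh alone the mean of the 6 RFX genes was -0.15 to -0.10 log2 on the 3 arrays, against 0.00 on each Vehicle array and -0.06 to 0.02 with Ihh. Rfx1 and Rfx3 were lower with Shh than with Vehicle at an unadjusted p under 0.05, by -0.30 and -0.33 log2 (limma adjusted p = 0.0657 and 0.203). Against Ihh 3 of the 6 were lower with Shh at that level and 0 were called. Over all genes the share at that level was 13.7% for both ligands, 18.8% for Shh against Vehicle and 13.1% for Shh against Ihh. Of the 6 RFX genes 2 lay below the array medians on all arrays, where differences are compressed. The GLI core GACCACCCA, the sequence bound by the transcription factors at the end of the hedgehog pathway, was in the windows of 0 of 38 members and 0.289% of all genes. At so low a share, 0 of 38 does not set the members apart from all genes. These letters were also absent from the windows of Ptch1 and Hhip, and Gli1 had no entry.

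The comparison of both ligands with Vehicle asked which transcripts in this tissue hedgehog ligands change. Of the 40 members 29 had a positive and 11 a negative difference, with a median of 0.03 log2 against 0.00 over all genes. The median size of the difference, without its sign, was 0.04 log2 for the members and 0.06 over all genes. At an unadjusted p under 0.05 there were 3 members, all higher (Rab34, Kif3a and Ift88), which is 7.5% of them against 13.7% of all genes. Without Vehicle 1 or Ihh 1 that count was 5, and without Ihh 2 or Ihh 3 it was 2. It was 6 with the pool number as a block, 7 with the mean of probe sets and 8 with array weights. The 95% interval of the difference (limma, for each gene alone) lay within 1.5-fold either way for all 40 members, while 95.8% of all genes met this limit. Without 1 array, 38 to 40 members stayed within 1.5-fold. For the 9 members that reached below the array medians on any array (Wdr19, Bbs1, Bbs5, Bbs9, Bbs10, Bbs12, Mks1, Tmem67 and Cep290), low values are compressed towards background and a true difference may be larger than the interval shows.

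**Figure D1:**
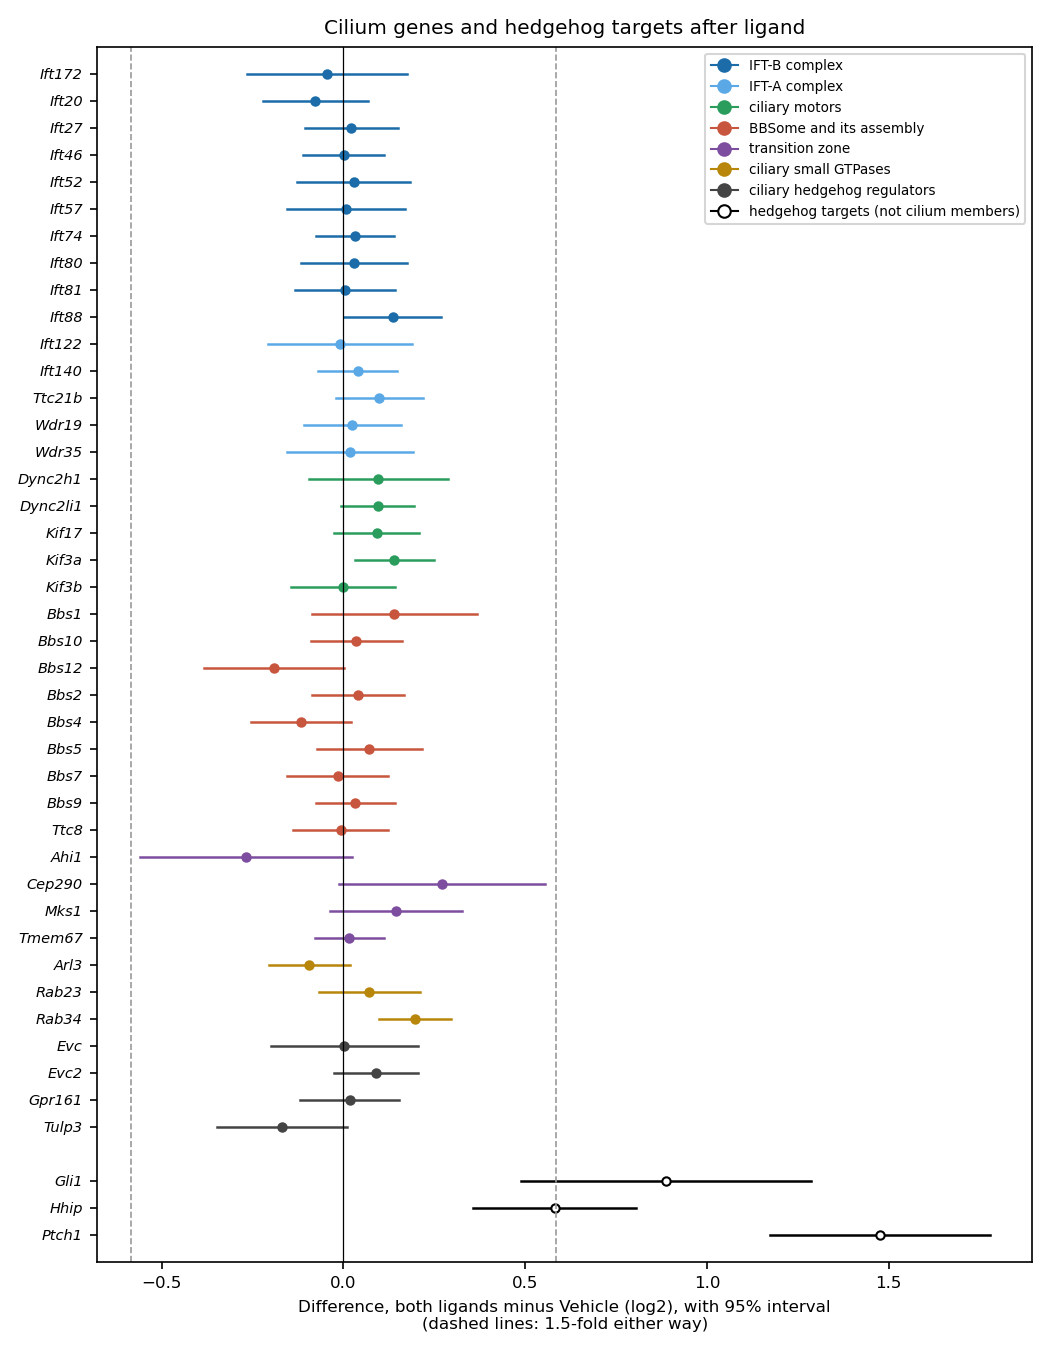
Difference of both ligands from Vehicle (horizontal axis, log2) for the 40 measured cilium genes coloured by role, with Gli1, Hhip and Ptch1 below as hedgehog targets; points are fitted differences, lines their 95% intervals and dashed lines 1.5-fold either way. All cilium gene intervals lie inside the dashed lines, while Ptch1 lies at 1.48.

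The IFT-B complex, the train towards the tip, had all 10 members above the array medians on all arrays, and 0 were called. Differences for both ligands ran from -0.08 to 0.14 log2, with a median of 0.01. Ift88, the scaffold subunit whose loss abolishes cilia, was at 6.60, 6.58 and 6.38 log2 on the Vehicle arrays, 6.69, 6.66 and 6.72 with Shh, and 6.59, 6.58 and 6.69 with Ihh. The low value of Vehicle 3 set its difference of 0.14 ± 0.06 log2 (SE, limma adjusted p = 0.353), and without that array the difference was 0.07. Ift46, Ift52, Ift57, Ift74, Ift80 and Ift81, further subunits of the complex, differed by 0.00 to 0.03. Ift172, the large subunit at the periphery of the complex, differed by -0.04, Ift27 by 0.02 and Ift20, which also serves the Golgi, by -0.08.

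The IFT-A complex, which returns cargo to the base and lets receptors in, was as flat. Its 5 members differed by -0.01 to 0.10 log2 for both ligands, and 0 were called (0 at an unadjusted p under 0.05). Ttc21b, the subunit whose loss raises hedgehog signalling in the mouse embryo, had the highest difference, 0.10 ± 0.05 (SE, limma adjusted p = 0.467). Ift122, Ift140, Wdr35 and Wdr19 differed by -0.01, 0.04, 0.02 and 0.02.

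Among the ciliary motors, Kif3a and Kif3b form the kinesin of the IFT-B train, Kif17 is an accessory kinesin, and Dync2h1 and Dync2li1 belong to the dynein of the return. As a list their mean per array lay at 0.05 to 0.16 log2 on the treated arrays and -0.01 to 0.02 on the Vehicle arrays. The 2 ranges also lay apart after another quantile normalization (0.05 to 0.21 against -0.03 to 0.02) and after centring (0.04 to 0.13 against -0.02 to 0.02), and met without Kif3a (0.02 to 0.18 against -0.02 to 0.03). None of the 5 motors was called by limma, and Kif3a alone had an unadjusted p under 0.05.

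Kif3a was at 8.61, 8.62 and 8.62 log2 on the Vehicle arrays, 8.80, 8.71 and 8.89 with Shh, and 8.70, 8.71 and 8.71 with Ihh. All treated arrays lay above all Vehicle arrays, at a difference of 0.14 ± 0.05 log2 (SE, limma adjusted p = 0.225). This came from 1 of 4 probe sets of the gene. The other 3 differed by -0.01, -0.03 and 0.00, with treated and Vehicle arrays overlapping in each, and with the mean of its probe sets the gene differed by 0.02 (adjusted p = 0.875). Dync2li1, the light intermediate chain of the dynein, was at 7.32, 7.32 and 7.37 log2 with Vehicle, 7.46, 7.48 and 7.40 with Shh, and 7.45, 7.39 and 7.40 with Ihh. Its treated arrays also lay above the Vehicle arrays, by 0.09 ± 0.04 (SE, limma adjusted p = 0.395). Dync2h1, the heavy chain, differed by 0.10, Kif17 by 0.09 and Kif3b by 0.00 on the probe set used. The other probe sets of Kif3b differed by -0.19, 0.12 and 0.14, the first with all treated arrays below all Vehicle arrays (unadjusted p = 0.0181). On the probe sets used, Kif3a, Dync2li1 and Rab34 were the 3 of 40 members whose treated arrays were all above Vehicle, and 0 of 40 had them all below, against 2.67% and 3.8% of all genes.

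The BBSome and the genes that assemble it had 9 measured members and 0 calls. Differences for both ligands ran from -0.19 to 0.14 log2, with a median of 0.03. Bbs12, a chaperonin-like protein needed for BBSome assembly, was at 6.28, 6.17 and 6.12 log2 on the Vehicle arrays, 5.90, 6.06 and 5.75 with Shh, and 6.26, 6.06 and 5.94 with Ihh. All 3 Shh arrays lay below Vehicle, while Ihh 1 lay within the Vehicle range, and the difference for both ligands was -0.19 ± 0.09 (SE, limma adjusted p = 0.368). Bbs4, a subunit that binds the centriolar satellites, differed by -0.12 on the probe set used. A second bright probe set of Bbs4 differed by 0.20, with an unadjusted p of 0.017, so the sign for this gene depended on the probe set. The subunits Bbs2, Bbs7, Bbs9 and Ttc8 differed by -0.02 to 0.04, Bbs1 by 0.14, Bbs5 by 0.07 and the assembly factor Bbs10 by 0.04.

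The transition zone, the gate at the base of the cilium, had the widest spread of values. Cep290, which links the microtubules to the membrane there, was at 5.24, 5.18 and 5.04 log2 on the Vehicle arrays, 5.52, 5.33 and 5.27 with Shh, and 5.16, 5.43 and 5.83 with Ihh. All 3 Shh arrays lay above all Vehicle arrays, while the Ihh arrays spanned both the lowest and the highest treated value. The difference for both ligands, 0.27 ± 0.13 (SE, limma adjusted p = 0.387), had an interval of -0.01 to 0.56. Ahi1, a transition zone scaffold also known for its part in brain development, was at 7.88, 7.40 and 7.36 log2 on the Vehicle arrays, 7.24, 7.08 and 6.97 with Shh, and 7.62, 7.55 and 7.20 with Ihh. The Shh arrays lay below all Vehicle arrays and the Ihh arrays overlapped them, so that both ligands together differed by -0.27 ± 0.13 (SE, limma adjusted p = 0.407). Vehicle 1 carried much of this: without it the difference was -0.10. The mean of its probe sets gave -0.09, but the second probe set lay below the array medians on all arrays. For Shh alone Ahi1 was called with the pool number as a block (adjusted p = 0.0418). Mks1 differed by 0.15 and Tmem67, a membrane protein of the gate that read 3.94 to 4.02 log2 on all arrays, by 0.02.

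Of the small GTPases, which steer vesicles and lipid-anchored proteins to the cilium, Rab34 came nearest to a call. Rab34, which acts early in building cilia inside the cell, was at 9.84, 9.79 and 9.81 log2 on the Vehicle arrays, 10.05, 9.97 and 10.01 with Shh, and 10.01, 9.97 and 10.04 with Ihh. The treated arrays lay above all Vehicle arrays with both ligands, and the difference of 0.20 ± 0.04 log2 (SE), a fold of 1.15, missed the threshold at a limma adjusted p of 0.0649. Its second probe set differed by 0.19, again with all treated arrays above Vehicle. Under 4 of 9 other settings Rab34 was called, with adjusted p from 0.0157 to 0.11 over the 9, and without 1 array it was called in 0 of 9 fits, at 0.0894 to 0.255. Rab23, which restrains hedgehog signalling, differed by 0.07, 0.08 and 0.32 on its 3 probe sets, the last at an adjusted p of 0.145 over all probe sets. Arl3, which releases lipid-anchored cargo inside the cilium, differed by -0.09 (adjusted p = 0.457).

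The ciliary hedgehog regulators set the balance of Smo and its antagonists in the cilium, and 0 of 4 were called (0 at an unadjusted p under 0.05). Tulp3, the adaptor that brings the inhibitory receptor Gpr161 into the cilium, was at 8.77, 8.62 and 8.72 log2 on the Vehicle arrays, 8.73, 8.41 and 8.40 with Shh, and 8.64, 8.52 and 8.50 with Ihh. Shh 1 and Ihh 1 lay within the Vehicle range and the other 4 treated arrays below it, at a difference of -0.17 ± 0.08 (SE, limma adjusted p = 0.395). Its other probe sets differed by 0.06 and 0.07, and the mean of its probe sets by -0.02. Gpr161 itself differed by 0.02 on the probe set used. Evc and Evc2, which bind Smo at the base of the cilium, differed by 0.00 and 0.09.

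**Figure D2:**
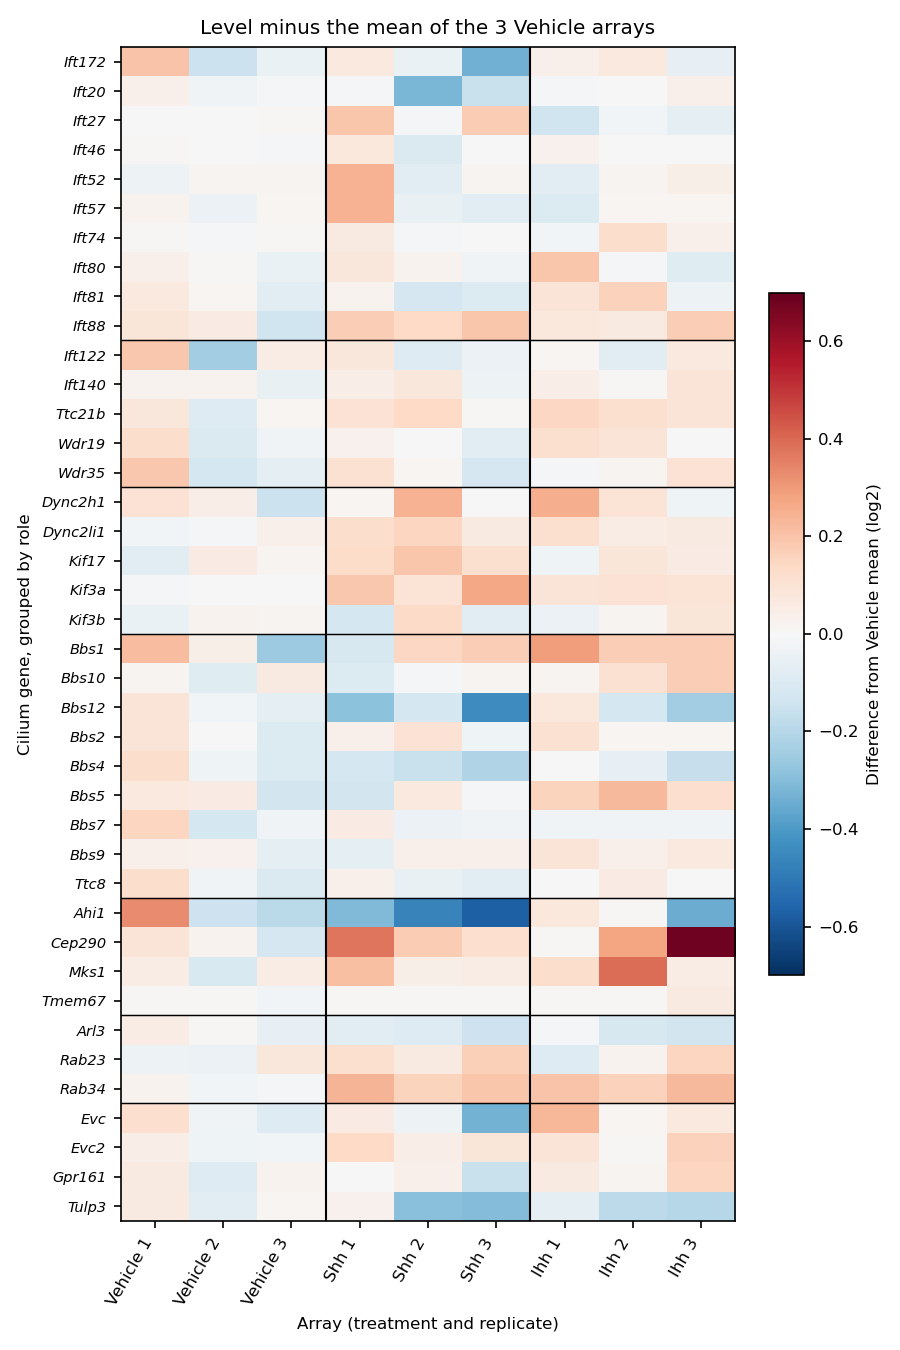
Level of each measured cilium gene (rows, grouped by role) on each of the 9 arrays (columns) minus the mean of the 3 Vehicle arrays, in log2 as coloured. Most cells are pale; the 4 strongest colours are those of Cep290 on Ihh 3, Ahi1 on Shh 3 and Shh 2, and Bbs12 on Shh 3.

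**Figure D3:**
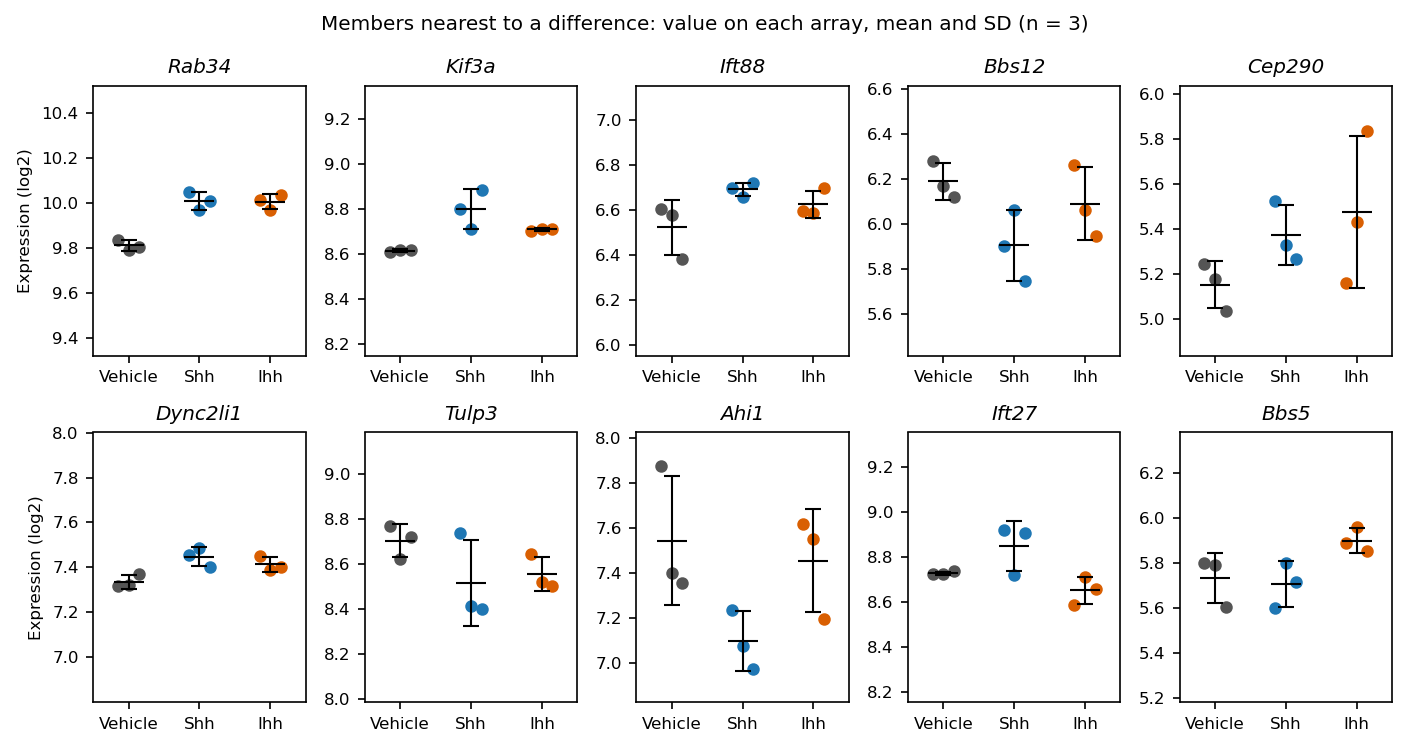
Values of 10 named members on each array (points, vertical axis log2, each panel spanning 1.2 log2), with the mean and SD of the 3 arrays of a group as bars. Rab34, Kif3a and Dync2li1 have all 6 treated points above the Vehicle points. In single groups, Shh lies wholly above Vehicle for Ift88 and Cep290 and wholly below it for Bbs12 and Ahi1. Ihh lies wholly above Vehicle for Bbs5 and wholly below it for Ift27.

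Each ligand alone gave the same count of calls. For Shh against Vehicle 0 of 40 members were called by limma (1.73% of all genes were), with differences of -0.45 to 0.22 log2 and a median of 0.00 against 0.01 over all genes. At an unadjusted p under 0.05 Ift88, Kif3a, Kif17 and Rab34 were higher and Bbs4, Bbs12 and Ahi1 lower, 17.5% of the members against 18.8% of all genes. That count of 7 fell to 3 without Vehicle 1 and 4 without Shh 3. Array weights called Rab34 (adjusted p = 0.0398), and the pool number as a block called Ahi1. Kif17, at 6.12, 6.25 and 6.22 log2 with Vehicle and 6.32, 6.39 and 6.31 with Shh, differed by 0.15 ± 0.06 (SE, limma adjusted p = 0.232). The interval of Ahi1 reached -0.78 log2, and the other 39 members lay within 1.5-fold.

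For Ihh against Vehicle 0 of 40 members were called by limma (0.649% of all genes were), and differences ran from -0.15 to 0.32 log2, with a median of 0.04 against -0.01 over all genes. At an unadjusted p under 0.05 Bbs5 and Rab34 were higher and 0 were lower, 5% of the members against 9.19% of all genes. That count of 2 became 4 without Vehicle 1 and 1 without Vehicle 3, Shh 3 or Ihh 2, and 6 with array weights, which called Rab34 (adjusted p = 0.0404). The interval of Cep290 reached 0.65 log2 and the other 39 members lay within 1.5-fold. Both comparisons used the same 3 Vehicle arrays. On the probe sets used, Rab34 differed by 0.20 with Shh and 0.20 with Ihh, and Kif3a by 0.19 and 0.10. Ift88 differed by 0.17 and 0.10, and Ahi1 by -0.45 and -0.09.

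The ligands were also compared with each other, Shh minus Ihh, at the same time after treatment, with doses not given. Limma called 0 of 40 members (0.011% of all genes), and 4 passed an unadjusted p under 0.05 (10% against 13.1% of all genes). That count was 0 without Shh 3 and 1 without Ihh 1 or Ihh 2. Differences ran from -0.36 to 0.20 log2, and the intervals of 39 members lay within 1.5-fold. Ift27, the small GTPase of the IFT-B complex that also takes the BBSome out of the cilium, was at 8.72, 8.72 and 8.73 log2 with Vehicle, 8.92, 8.72 and 8.91 with Shh, and 8.59, 8.71 and 8.66 with Ihh. Its Shh arrays lay above its Ihh arrays, by 0.20 ± 0.07 (SE, limma adjusted p = 0.312), but without less specific probe sets the gene was read by another probe set and differed by -0.05, and with the mean of its probe sets by 0.11.

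Bbs5, the BBSome subunit that binds membrane lipids, was at 5.80, 5.79 and 5.60 log2 with Vehicle, 5.60, 5.80 and 5.72 with Shh, and 5.89, 5.96 and 5.85 with Ihh. The Ihh arrays lay above the Shh arrays, with Shh lower by 0.19 (interval -0.36 to -0.03, limma adjusted p = 0.341). Ahi1 was lower with Shh than with Ihh by 0.36 (interval -0.70 to -0.02, limma adjusted p = 0.368), with Shh 1 above Ihh 3. Enteric neuron and glia markers were also mostly lower with Shh. Among the Shh arrays, Shh 1 had the lowest mean of these markers and the highest value of Ahi1. Of 8 markers measured, 7 were lower with Shh than with Ihh and 0 were called. At an unadjusted p under 0.05, 6 were lower and 0 higher, against 13.1% of all genes. Relative to Vehicle, 6 were lower and 1 was higher with Shh at that level, against 18.8% of all genes. Their mean level was 8.25 to 8.43 log2 with Shh, 8.43 to 8.78 with Ihh and 8.50 to 8.80 with Vehicle. None of the 8 lay below 6.85 on any array. Relative to Vehicle, the list mean of endothelial markers was -0.41 to -0.33 log2 with Shh and -0.41 to 0.00 with Ihh. That of the RFX genes was -0.15 to -0.10 with Shh and -0.06 to 0.02 with Ihh. The part of these lists in the result for Ahi1 was not tested. For Rab34 the ligands differed by 0.00 on the probe set used, with an interval of -0.11 to 0.12. Its second probe set read 10.05, 9.89 and 9.95 log2 with Shh and 9.82, 9.79 and 9.82 with Ihh. There every Shh array lay above every Ihh array (limma adjusted p = 0.38 over all probe sets).

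**Figure D4:**
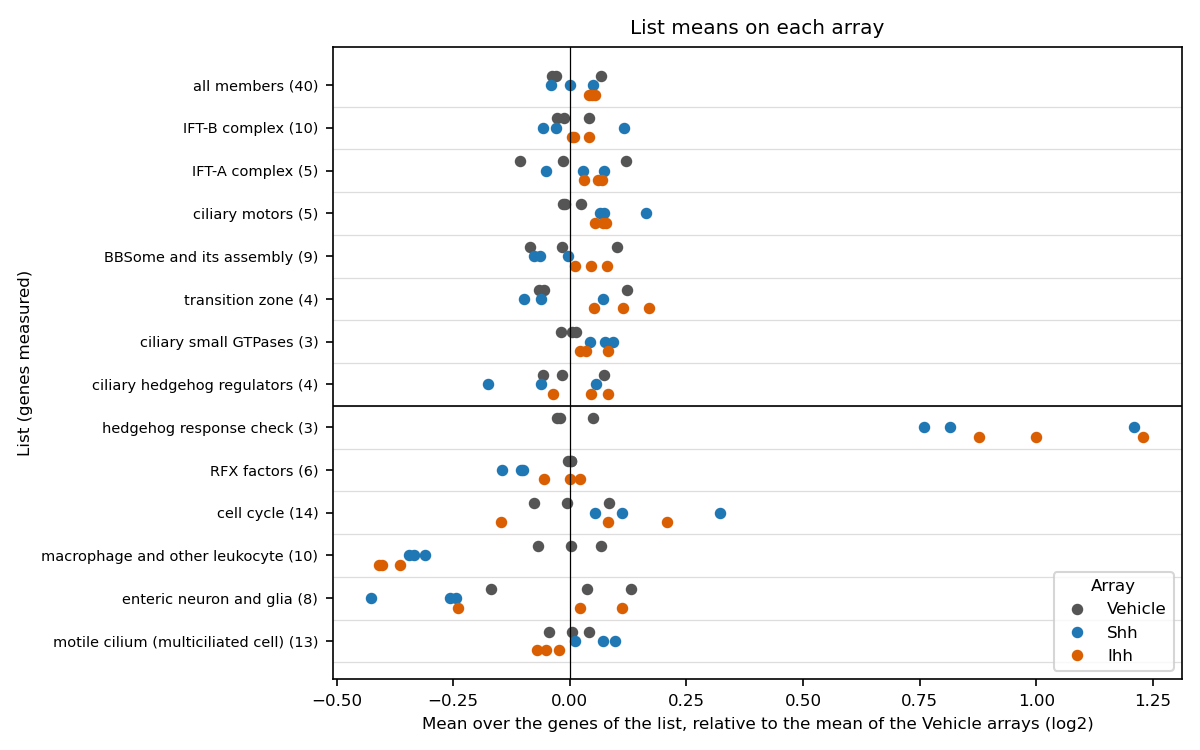
Mean of each gene list on each array (points, horizontal axis log2 relative to the mean of the Vehicle arrays), for the cilium roles above the black line and reference lists below it, with the number of genes measured in brackets. The mean of all 40 members spans -0.04 to 0.07, while the 3 hedgehog targets Ptch1, Gli1 and Hhip lie at 0.76 to 1.23 on the treated arrays.

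Averaged over the 40 members, the 9 arrays lay within a narrow band. The list mean was 0.07, -0.03 and -0.04 log2 on the Vehicle arrays, 0.05, 0.00 and -0.04 with Shh, and 0.05, 0.05 and 0.04 with Ihh. Vehicle 1 was the highest array, and the treated arrays overlapped the Vehicle range. The replicate SD, pooled over the 3 groups, had a median of 0.08 log2 over the members and 0.10 over all genes. Among members it ran from 0.02 for Tmem67 to 0.23 for Ahi1. Cell cycle genes matter here because cells take down the cilium to divide. Their list mean was -0.15 to 0.32 log2 on the treated arrays and -0.08 to 0.08 with Vehicle, overlapping. For both ligands 13 of 14 had a positive difference, with a median of 0.11 log2 against 0.00 over all genes. Of the 14, 0 were called and 1 was higher at an unadjusted p under 0.05, against 13.7% of all genes.

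Genes with several probe sets gave a check on single readings. Of 20 such members, 11 had all probe sets on the same side of 0 for both ligands and 9 did not. Tested singly among 34945 probe sets, 0 of the 71 were called by limma in any comparison. Over all 34945, 334 were called for both ligands, 404 for Shh, 132 for Ihh and 2 for Shh against Ihh. Of the 71, 8 had an unadjusted p under 0.05 for both ligands, against 13.7% of all genes on the probe sets used. Those not used above were probe sets of Bbs10, Bbs4, Kif3b, Rab23 and Rab34. Of the 31 probe sets not used, 15 lay below the array medians on all arrays.

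**Figure D5:**
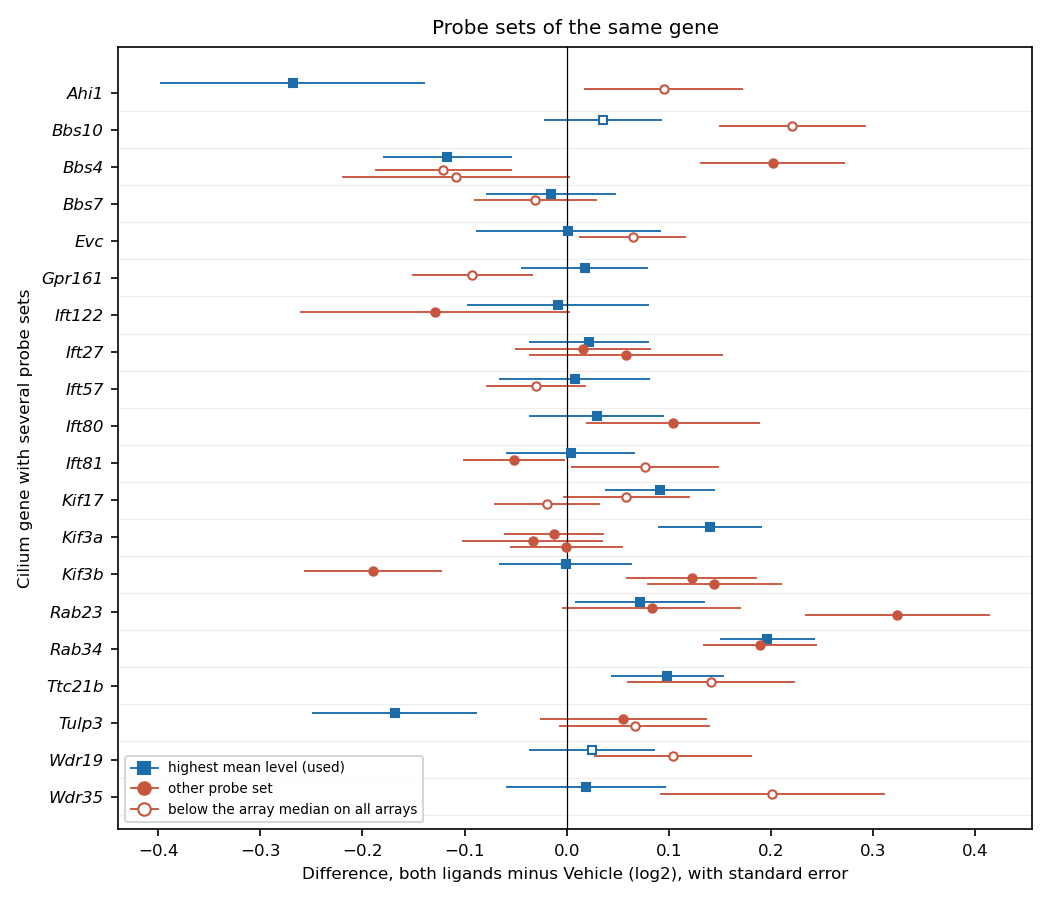
Difference of both ligands from Vehicle (horizontal axis, log2, with standard error) for every probe set of the 20 cilium genes with more than 1; squares are the probe sets used, circles the others, and open symbols lie below the array median on all arrays. The pair of Rab34 lies at 0.19 and 0.20, whereas the probe sets of Kif3b, Bbs4 and Tulp3 fall on both sides of 0.

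Other genes of the cilium, from lists that share no gene with the members, also had 0 calls for both ligands against Vehicle. Over all genes 1.51% were called there and 13.7% had an unadjusted p under 0.05. Of 15 transport genes (further IFT, motor and BBSome genes) 0 rose and 0 fell, and 2 had an unadjusted p under 0.05. These were Bbip1, a small BBSome subunit, at 0.17 log2 (limma adjusted p = 0.106), and Kifap3, the accessory subunit of the Kif3 kinesin, at -0.21 (adjusted p = 0.352). Of 13 transition zone and inversin compartment genes 0 were called (1 higher and 0 lower unadjusted), with Cc2d2a, a transition zone protein, at 0.19 (adjusted p = 0.127). Of 13 genes of the basal body and cilium start and 7 of membrane lipids and lipid-anchored cargo, 0 were called (0 unadjusted in each), and their differences ran from -0.04 to 0.14 and from -0.11 to 0.06. Of 6 genes of cilium disassembly 0 were called (1 higher and 0 lower unadjusted), with Kif24, a kinesin of the centriole, at 0.20 (adjusted p = 0.326). Shh against Ihh also gave 0 calls in these lists. Unadjusted, 3 of 13 genes of the basal body and cilium start were lower with Shh, against 13.1% of all genes. Of the 13 transition zone and inversin genes 2 were higher and 1 was lower. The transport, membrane lipid and disassembly lists had 1 lower each.

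Hedgehog proteins that pass through the cilium covered a wider range than the members. Of 7 measured, 2 rose for both ligands and 3 had an unadjusted p under 0.05. The called genes were Ptch1 and the Gli family member that hedgehog signalling induces, Gli1 (0.89 ± 0.18 log2, SE, adjusted p = 0.0443). Gli1 was at 5.24, 5.44 and 5.01 log2 with Vehicle, 5.89, 6.56 and 5.63 with Shh, and 6.34, 6.03 and 6.27 with Ihh, with every treated array above every Vehicle array. It was called for neither ligand alone (adjusted p = 0.0871 for Shh and 0.0827 for Ihh). The Vehicle values of Gli1, and those of Hhip on all arrays, lay below the array medians, where differences are compressed. Smo, the transducer that enters the cilium on signalling, was at 8.45, 8.52 and 8.59 log2 with Vehicle, 8.57, 8.62 and 8.26 with Shh, and 8.68, 8.54 and 8.52 with Ihh. The groups overlapped and the difference was 0.01, with an interval of -0.17 to 0.20. Sufu and Kif7, which hold the Gli factors in check, differed by -0.15 and -0.01 (adjusted p = 0.381 and 0.963), and Gli2, the main activator, by 0.33 (adjusted p = 0.0677). Outside this list Hhip, a surface protein that binds the ligands, was at 4.69, 4.84 and 5.09 log2 with Vehicle, 5.38, 5.43 and 5.54 with Shh, and 5.34, 5.35 and 5.68 with Ihh. Every treated array again lay above every Vehicle array, while the Shh and Ihh arrays overlapped. For both ligands Hhip differed by 0.58 ± 0.10 (SE, limma adjusted p = 0.0243).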

How the data were processed

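RNA of cultured mesenchyme was labelled (6 ug, per the labels' protocols) and measured on 9 Affymetrix arrays. The deposited values were log2 expression for each of 45101 probe sets, made by the authors with GCOS and RMA per the submitters' processing notes (no version is stated there). The log2 scale was read from the range of the values. Because RMA equalizes the distributions of the arrays, a change common to all genes is invisible. No batch or scan date is given, and arrays carry no read depth: their number limits the precision.

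The platform annotation gave 34945 probe sets exactly 1 symbol, and each gene was represented by the brightest of these. Group means of all 9 arrays were fitted in limma 3.58.1 (lmFit, eBayes; R 4.3.3) (6 residual degrees of freedom, 3.88 prior). Two-sided p-values received Benjamini-Hochberg adjustment across the 18193 genes, with a threshold of 0.05. The limma steps were tested on simulated data.

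Members and gene lists were chosen with earlier results of these data known. Named with all values were the 8 members with the smallest p for both ligands, the 3 for Shh against Ihh, any called member and any without overlap at 0.25 log2 or more; Kif17 and Bbs4 were added after their values were seen. Other lists named up to 3 genes with the smallest p. The numbers of the pools were tried as a block, and normalization, centring, dim genes, probe sets, variance model, array weights and single arrays were varied. Other values were not analysed here.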

Additional observations from a re-analysis of the deposited data

How the results depend on the processing

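Of the members called, the members' medians and the counts of intervals within 1.5-fold, recomputed under other settings (the interval counts not without dim genes or with every probe set singly), 207 values stayed on the same side of the threshold or within the limits set, 7 gained a call and 3 medians moved. Rab34 alone was called, as 1 of the members, for both ligands after another quantile normalization (adjusted p = 0.043), without dim genes (0.0404), with a trended and robust variance (0.041) and with array weights (0.0157); array weights also called it for Shh (0.0398) and for Ihh (0.0404) and raised the calls over all genes from 274 to 1126 for both ligands, from 314 to 1017 for Shh and from 118 to 498 for Ihh. With the replicate block 1 member was called for Shh, Ahi1 (adjusted p = 0.0418), and the calls over all genes for Shh went from 314 to 522. Deviations of arrays of the same number correlated at 0.23 to 0.54 in all 3 pairs of Vehicle and Ihh, and at -0.30 to 0.14 in the other pairs, so the numbers may pair Vehicle with Ihh but were not taken to pair the Shh arrays. For Ihh the block called 0 members and 122 genes against 118 without it. The median for Shh against Ihh went from -0.030 to 0.010 after another quantile normalization. Without 1 array the medians were -0.0067 to 0.0437 for Shh and 0.0306 to 0.0803 for Ihh, the highest in both without Vehicle 1, and in each of the 4 comparisons 0 members were called. Without less specific probe sets Ift27 turned from 0.198 to -0.0504 for Shh against Ihh. The cause of these moves was not tested. Over all settings other than left-out arrays, the members at an unadjusted p under 0.05 numbered 2 to 8 for both ligands, 5 to 11 for Shh, 1 to 6 for Ihh and 3 to 7 for Shh against Ihh. The counts of intervals and of unadjusted p were added after seeing the data. Signal near background limits Tmem67, Wdr19, Bbs1, Bbs9, Bbs10 and Cep290, which lay below the array medians on all arrays.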
